A study of Brassica napus with 112 samples.

Results

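The genes described here are 150 seed-expressed genes of rapeseed whose difference between the hybrids Lumen and Solar turned round from the first growing season to the second. They were chosen on the seed libraries, from log2(value + 0.5) of the deposited normalized values. A gene was taken if its mean value was at least 20 and if Lumen minus Solar had a single sign in all 4 combinations of treatment and sampling time in season 1 and the other sign in all 4 of season 2. Of the 101040 genes in the table, 9913 reached the mean value and 325 of these met the sign rule (3.28%). The 150 with the largest absolute difference between the 2 season means were kept. Of these, 104 were higher in Solar in season 1 and higher in Lumen in season 2 and are called Solar-to-Lumen genes below, and 46 went the other way and are called Lumen-to-Solar genes. The values that chose them are given as a description without a test.

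RNA was measured by RNA-seq in seeds and siliques (the pods that enclose the seeds) of both spring hybrids in field trials of 2 seasons. Each tissue was sampled at 7 and 14 days after flowering (DAF) from control plots, left without manipulation, and from plots heated by about 5 °C under film-covered chambers from the start of flowering. The film held back part of the light, so the heat effect is that of the whole chamber. Each of the 16 conditions per tissue, season included, had 3 libraries if of season 1 and 4 if of season 2, or 56 per tissue and 112 in all. A library pools 5 plants of a plot, heat was assigned to main plots in season 1, and the hybrids were sampled on different calendar dates, further apart in season 1 than in season 2. Season, weather, sampling date and trial layout cannot be told apart, and each genotype is a single commercial hybrid.

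A seed at these stages passes from early growth of the embryo and its endosperm into filling, when storage proteins and oil are laid down and many genes of the young seed are shut off. Heat brings on chaperones, proteins that keep others from misfolding, and it can also speed development. Rapeseed joins an A and a C subgenome, so that most genes have a near-identical copy whose reads pseudoalignment may split. In RNA from whole seeds, fewer cells of a type and less RNA per cell cannot be told apart.

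The deposited values summed to between 890194 and 1658548 per seed library and between 909005 and 1245569 per silique library. In a check with marker genes chosen in siliques, 59 higher in Lumen and 72 higher in Solar, all 56 seed libraries fell on the side of their labelled hybrid. A pair of seed libraries stood apart, heated Lumen of 7 DAF (season 2, replicate 4) with 66990 genes at 0 against a median of 47897, and control Solar of 14 DAF (season 1, replicate 1) with 33.5% of its summed values in its 10 highest genes. With both left out, 303 genes met the sign rule, 129 of the 150 members among them, and the counts of members called in seeds given below became 55 for heat, 112 for time and 60 for season. A further library, control Solar of 7 DAF (season 1, replicate 3), was the highest of its 3 for 72 of the 104 Solar-to-Lumen genes in seeds and, in the silique library of that number, for 58. BnaC03g37680D, for example, stood at 15, 14 and 43 in these seeds and at 8, 6 and 36 in these siliques. Without season 1 replicate 3, 281 genes met the sign rule, 115 of the members among them, and the members called were 28 for heat, 103 for time and 46 for season in seeds. Membership rested on single replicates to some degree, since between 101 members (without season 2 replicate 2) and 131 still met the rule when any replicate number was left out.

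In the Solar-to-Lumen genes the hybrids differed by a median of -0.56 in season 1 and 0.44 in season 2 (Lumen minus Solar, log2 scale), and the season 1 differences ran from -2.63 to -0.15. The Lumen-to-Solar genes had medians of 0.51 and -0.45. All 9913 genes of like level had medians of -0.04 and -0.03. The difference between the season means had a median of 0.97 in the first group and 0.96 in the second, and it reached 1 log2 unit in 69 genes and 2 log2 units in 15. By time and treatment, the medians of the Solar-to-Lumen genes lay between -0.63 and -0.46 in season 1 and between 0.38 and 0.43 in season 2. The gap between the hybrids was larger in season 1 for 97 genes and larger in season 2 for 53. The smallest difference kept was that of BnaC05g00480D (0.56), after BnaA03g42320D (0.56), and the first left out was that of BnaA03g15710D (0.55), before BnaA01g00010D (0.55).

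The changes of each hybrid between seasons come from the values that chose the genes. Ranking by the difference of season means favours opposite changes of the hybrids, so the counts describe the choice. In 125 of the 150 genes, Lumen and Solar changed in opposite directions between the seasons, in 13 both were higher in season 2 and in 12 both were lower. The season change was the larger in Lumen for 75 genes and the larger in Solar for the other 75. From season 1 to season 2 the Solar-to-Lumen genes had a median change of 0.52 in Lumen and -0.55 in Solar, and the Lumen-to-Solar genes of -0.52 in Lumen and 0.43 in Solar. Single genes often overlapped between the hybrids within a condition. The 3 or 4 libraries of Lumen lay wholly apart from those of Solar in at least 4 of the 8 combinations for 55 genes (36.7%), against 30.2% of the genes of like level, and in all 8 for 1 gene, against 7.53%.

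**Figure D1:**
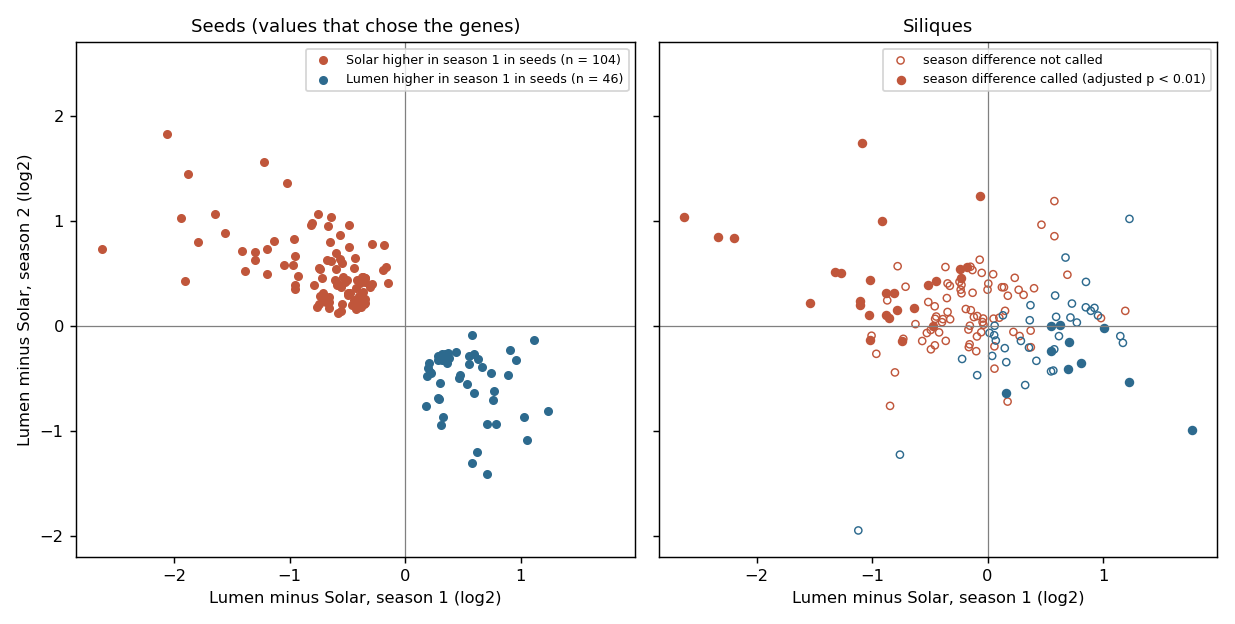
Lumen minus Solar in season 1 (x axis) and season 2 (y axis), on the log2 scale, for the 150 genes in seeds (left) and siliques (right); each point is a gene, red for the 104 Solar-to-Lumen and blue for the 46 Lumen-to-Solar genes. In seeds the rule puts every point in the upper left or lower right part, and in siliques 37 filled points mark genes whose hybrid difference differed between seasons at an adjusted p under 0.01.

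The mean level over the members of each group showed the same turn in every condition. At 7 DAF in control plots, the Solar-to-Lumen genes had a mean log2 level of 4.25 in Lumen and 4.97 in Solar in season 1, and of 4.86 and 4.42 in season 2. At 14 DAF in control plots the levels were 5.19 and 6.05 in season 1, and 5.82 and 5.15 in season 2. The libraries of the hybrids did not overlap in any of the 8 combinations for this group, whereas for the Lumen-to-Solar genes they overlapped in heated seeds at 14 DAF of season 2. Since the genes were picked for this sign, the separation describes the choice.

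The largest difference between season means belonged to BnaC03g37680D (GSBRNA2T00110671001, placed on chromosome C03 by its identifier), at 3.89 log2 units. Its seed value in season 1 lay between 4 and 23 in Lumen with a median of 7, and between 13 and 118 in Solar with a median of 46.5 (12 libraries each). The season 2 values were between 3 and 91 in Lumen with a median of 21, and between 1 and 12 in Solar with a median of 5.5 (16 libraries each). Solar was thus the high hybrid in the first season and the low hybrid in the second, and this was the only member whose libraries separated the hybrids in all 8 combinations. In control seeds at 7 DAF it stood at 4, 4 and 4 in Lumen and 15, 14 and 43 in Solar in season 1, and at 3, 4, 4 and 3 and 2, 2, 2 and 1 in season 2.

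BnaC03g33010D (GSBRNA2T00153653001), on the same chromosome by its identifier, followed with 3.36 log2 units. In season 1 its value was 2 to 25 in Lumen (median 5.5) and 17 to 94 in Solar (median 48.5). The season 2 values were 4 to 51 in Lumen (median 23.5) and 2 to 31 in Solar (median 10.5). The ranges overlapped slightly in season 1 and widely in season 2. The gap of -2.63 log2 units in season 1 was larger than that of 0.73 in season 2.

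Among the Lumen-to-Solar genes, BnaC08g00150D (GSBRNA2T00145372001) had the largest difference, 2.15 log2 units. Its value in season 1 was 56 to 203 in Lumen (median 114.5) and 16 to 139 in Solar (median 58). In the second season it was 5 to 57 in Lumen (median 30) and 24 to 85 in Solar (median 58.5). Solar kept its level from season to season, a change of -0.01 log2 units, while that of Lumen was -2.15.

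BnaAnng05770D (GSBRNA2T00067911001), not placed on a chromosome, differed by 2.12 log2 units. Its value was 5 to 45 in Lumen (median 18.5) and 5 to 30 in Solar (median 10) in season 1. The second season gave 0 to 53 in Lumen (median 17.5) and 12 to 80 in Solar (median 34.5). Here Lumen moved by -0.51 log2 units and Solar by 1.61, and the hybrids overlapped in both seasons. The files do not pair these 4 genes with a name or product.

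**Figure D2:**
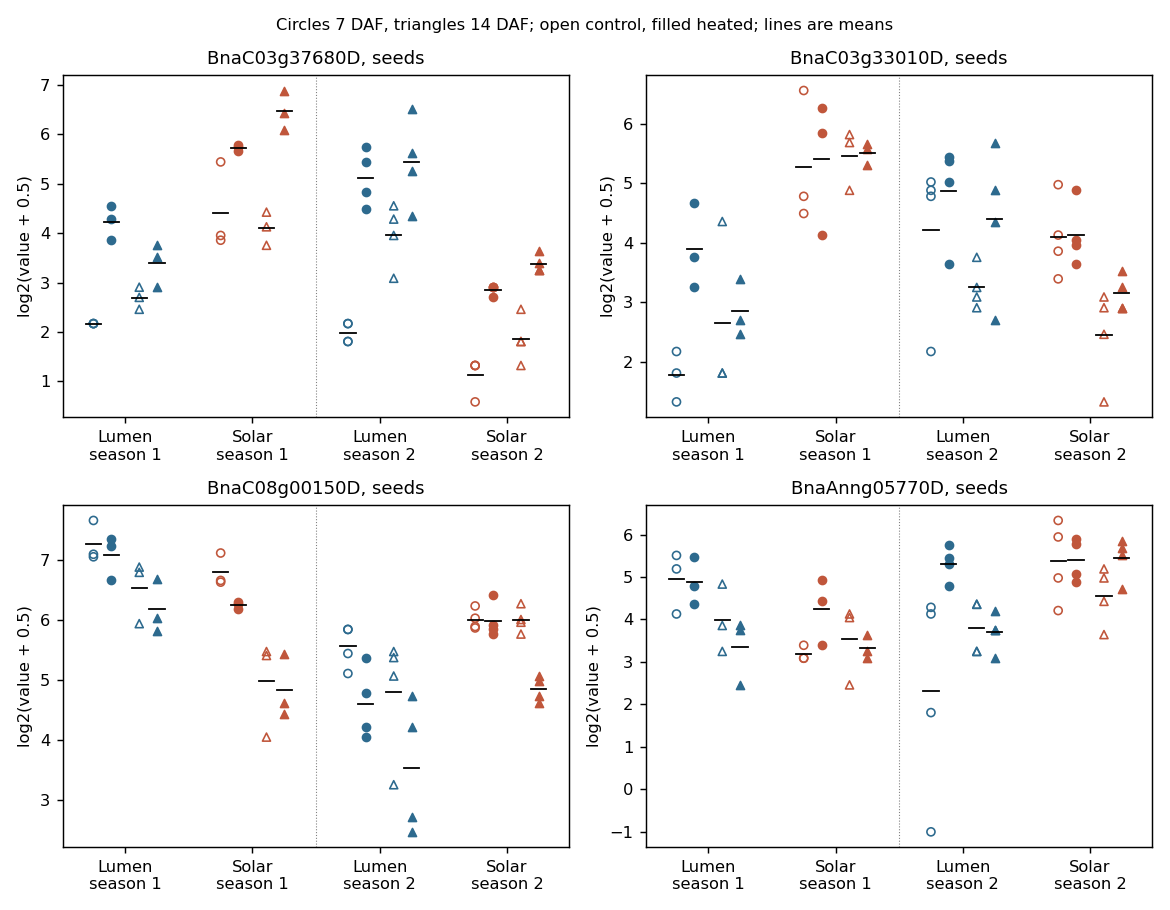
log2(value + 0.5) in every seed library of the 2 Solar-to-Lumen genes (top) and the 2 Lumen-to-Solar genes (bottom) with the largest difference between season means, by hybrid and season; circles are 7 DAF, triangles 14 DAF, open symbols control, filled symbols heated, and lines the mean of 3 or 4 libraries. The means of Solar (red) lie above those of Lumen (blue) in season 1 and below them in season 2 in the top panels, and cross the other way in the bottom panels.

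Heat was not part of the rule, and it set the groups apart. In limma's moderated test with Benjamini-Hochberg adjustment over the 53350 genes tested in seeds, 49 of the 150 members passed an adjusted p of 0.01, against 1.64% of all genes tested and 3.76% of those of like level. All 40 Solar-to-Lumen genes that passed were raised by heat and all 9 Lumen-to-Solar genes that passed were lowered. Of the genes of like level, 2.57% were raised and 1.19% lowered. The median heat change was 0.28 log2 units in the first group, with 94 of 104 values above 0, and -0.27 in the second, with 43 of 46 below 0, while the median over all genes tested was -0.02. The count fell without replicate 1, 2 or 3 of season 1, to 23, 20 and 28, and without replicate 1 of season 2, to 31, and no member was called in the opposite direction in any of these fits. In season 1 alone 5 members passed, all raised, and in season 2 alone 17 were raised and 5 lowered.

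The sign of the heat change was shared by the hybrids and seasons. In the Solar-to-Lumen genes its median was 0.32 in Lumen and 0.18 in Solar in season 1, and 0.26 and 0.35 in season 2, whereas the genes of like level had medians between -0.02 and 0.01. In the Lumen-to-Solar genes it was -0.15 and -0.13 in season 1, and -0.41 and -0.32 in season 2. Of the 104 genes, 30 were higher in heated seeds in all 8 combinations of hybrid, season and time (28.8%), against 2.03% of the genes of like level, and 11 of the 46 were lower in all 8 (23.9%), against 2.12%. Seen from the other side, 255 genes of like level were raised by heat in seeds, and 40 of them were Solar-to-Lumen members and 0 Lumen-to-Solar members. The 255 raised genes had a median Lumen minus Solar of -0.56 in season 1 and 0.37 in season 2. The 118 lowered genes of like level had 0.29 and -0.21. Members picked for these signs were not left out, 40 in the first set and 9 in the second, so the medians are not separate evidence.

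The largest rise under heat was again that of BnaC03g37680D. Its seed value was 1 to 43 in the 28 control libraries (median 4.5) and 6 to 118 in the 28 heated libraries (median 21). In 6 of the 8 combinations every heated library was above every control library. The exceptions were Lumen seeds of 14 DAF, at 11, 13 and 7 heated and 5, 7 and 6 control in season 1, and at 49, 91, 38 and 20 heated and 8, 15, 23 and 19 control in season 2. The change was 1.79 log2 units (standard error 0.12) with a limma adjusted p of 1.88e-13. BnaC01g38510D came next at 1.66 (standard error 0.13), with a limma adjusted p of 5.24e-12.

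The largest falls were those of BnaC06g01610D and BnaA10g18370D, both Lumen-to-Solar genes. BnaC06g01610D stood at 16 to 164 in control seeds (median 74) and at 7 to 81 in heated seeds (median 44.5), or -0.78 log2 units (standard error 0.11, limma adjusted p of 4.97e-06). BnaA10g18370D stood at 80 to 377 (median 228) and 36 to 344 (median 129.5), or -0.73 log2 units (standard error 0.13, limma adjusted p of 0.000515). The ranges over all conditions overlapped in both genes. BnaA10g18370D no longer passed without replicate 2 of season 1 (-0.71) or in a fit without interactions (-0.74), and neither gene passed in season 1 alone, at -0.67 for BnaC06g01610D and -0.61 for BnaA10g18370D, or at 7 DAF alone, at -0.60 and -0.59.

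Functional terms were at hand only in shortened lists for gene network modules, which the study built on these libraries. These lists hold 1735 genes under any term and are silent on all but 3 of the 150 members. The 3 carried the term protein folding, BnaC01g38510D, BnaC02g12750D and BnaA03g48890D, all of them Solar-to-Lumen genes. They were chosen for naming after their values had been seen, and a list built on these libraries is not independent evidence of their direction. All 3 also carry unfolded protein binding, BnaC01g38510D (GSBRNA2T00007549001) heat shock protein binding as well, and BnaC02g12750D ATP hydrolysis activity. Genes under these terms are mostly chaperones and their partners, which bind unfolded proteins and help them reach or keep their shape.

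Within each season and hybrid, BnaC01g38510D was higher in every heated library of 7 DAF than in every control library of that time. In season 1 the heated seeds of 7 DAF held 23, 42 and 45 in Lumen and 170, 95 and 91 in Solar, against 15, 11 and 10 and 38, 25 and 82 in control seeds. In season 2 the heated seeds of 7 DAF held 31, 57, 69 and 94 in Lumen and 12, 15, 18 and 22 in Solar, against 7, 8, 12 and 7 and 5, 4, 7 and 4 in control seeds. Solar was therefore the higher hybrid under either treatment in season 1 and the lower one under either in season 2. At 14 DAF in heated seeds the values were 26, 24 and 17 in Lumen and 103, 189 and 145 in Solar in season 1, and 81, 174, 67 and 41 and 24, 43, 34 and 27 in season 2. Its gap of -1.88 log2 units in season 1 became 1.44 in season 2.

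BnaC02g12750D went from a gap of -1.30 to 0.71. Heat raised it by 0.82 log2 units (standard error 0.08, limma adjusted p of 5.87e-09), from 10 to 76 in control seeds (median 18) to 13 to 122 in heated seeds (median 30.5). BnaA03g48890D went from -0.69 to 0.23, and its heat change of 0.22 in seeds did not pass (limma adjusted p of 0.132). Its values ran from 28 to 96 in control and from 25 to 82 in heated seeds.

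The listed genes under folding or chaperone terms, the 3 members included, were higher in Lumen in both seasons by their median. They come only from network modules built on these libraries and reported for their correlation with traits such as seed oil, in which the study found the hybrids to differ. The median therefore describes this list and not folding genes at large. Of 127 such genes listed, 68 had a mean seed value of at least 20, and their hybrid difference had a median of 0.29 in the first season and 0.33 in the second. By season means, 20 of the 68 were higher in Solar in season 1 and in Lumen in season 2, and 2 were the opposite, while 15.9% and 16% of all genes of like level changed sign in these directions. The full sign rule was met by 6 of the 68, beside 3.28% of the genes of like level, and 3 of the 6 fell below the 150 kept. Among those not kept, BnaCnng72890D went in the Lumen-to-Solar direction, at 0.33 in season 1 and -0.10 in season 2. Heat raised 28 of the 127 in seeds and lowered 0 (limma, adjusted p under 0.01). Of all genes tested, 1.64% were called in either direction. The 2.57% raised and 1.19% lowered among genes of like level are shares of an unlike set, since only 68 of the 127 reach that level.

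**Figure D3:**
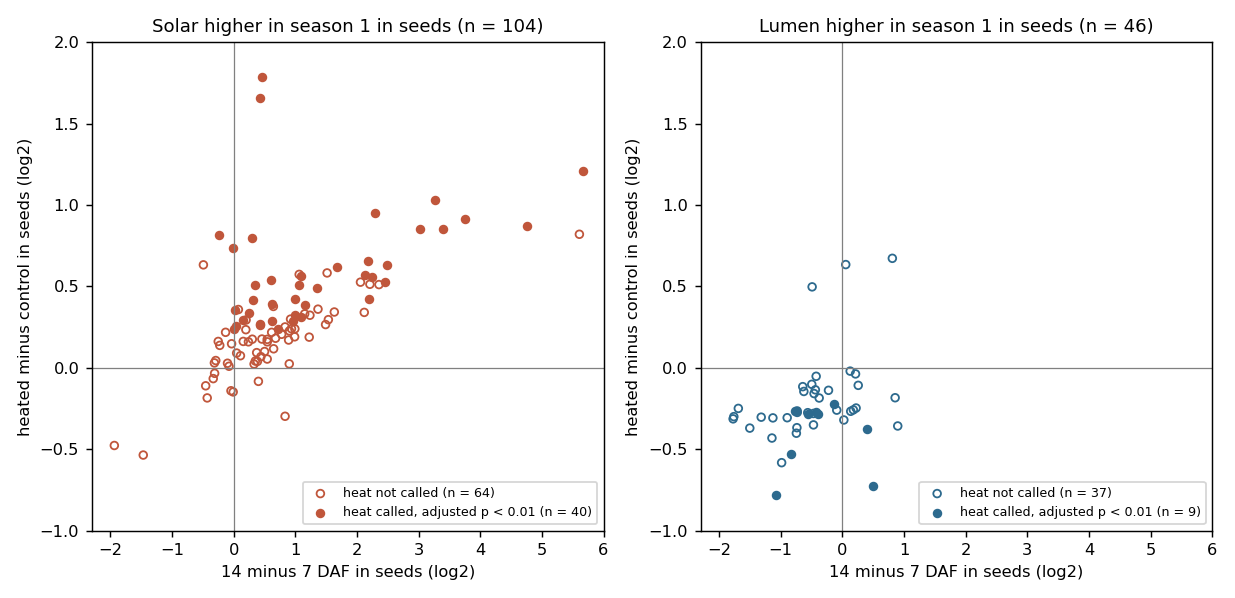
Change from 7 to 14 DAF (x axis) and change under heat (y axis) in seeds, on the log2 scale, for each Solar-to-Lumen gene (left, n = 104) and each Lumen-to-Solar gene (right, n = 46); filled points passed the test for heat. The 40 filled points on the left all lie above 0 and the 9 on the right all lie below 0, and 33 of the 40 were also called higher at 14 DAF.

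Sampling time divided the groups in the same way. Of the 104 Solar-to-Lumen genes 70 rose from 7 to 14 DAF and 3 fell, and of the 46 Lumen-to-Solar genes 5 rose and 29 fell, 107 of the 150 in all, against 37.0% of all genes tested and 55.0% of those of like level, of which 26.3% rose and 28.7% fell (limma, adjusted p under 0.01). The median change was 0.62 in the first group and -0.47 in the second, and it kept its sign in each hybrid and season, between 0.56 and 0.65 in the first group and between -0.57 and -0.34 in the second. Of the members called for heat, 33 Solar-to-Lumen genes were called higher for both heat and time and 6 Lumen-to-Solar genes lower for both, where 1.91% and 0.777% of the genes of like level were. The other 10 were not called for time or changed in the opposite direction.

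The steepest rises were those of BnaC05g07900D and BnaA03g19390D. BnaC05g07900D was at 1 to 11 in the 28 seed libraries of 7 DAF (median 2) and at 5 to 1029 in those of 14 DAF (median 193.5), a change of 5.66 (standard error 0.24, limma adjusted p of 1.53e-22). At 14 DAF it stood at 13 to 148 in Lumen (median 84.5) and 189 to 273 in Solar (median 234) in season 1, and at 102 to 1029 (median 451.5) and 5 to 596 (median 147) in season 2. The hybrids did not overlap at 14 DAF in season 1 and overlapped in season 2, and at 7 DAF no hybrid exceeded 11. BnaC05g07890D, its neighbour in the order of identifiers, is a member as well and rose from 7 to 31 at 7 DAF (median 19.5) to 22 to 980 at 14 DAF (median 219).

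BnaA03g19390D rose by 5.61 (standard error 0.35, limma adjusted p of 9.19e-18), from 0 to 47 at 7 DAF (median 8.5) to 23 to 2899 at 14 DAF (median 415.5). At 14 DAF its medians were 190 in Lumen and 498.5 in Solar in season 1, and 854.5 and 320 in season 2. Its 6 Lumen libraries of season 1 at 14 DAF (30 to 355) lay below the 6 Solar ones (394 to 609).

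The steepest falls were those of BnaC08g36830D and BnaA09g08190D. BnaA09g08190D, a Lumen-to-Solar gene, dropped from 58 to 161 at 7 DAF (median 110) to 7 to 96 at 14 DAF (median 31.5), a change of -1.77 (standard error 0.13, limma adjusted p of 2.93e-15). BnaC08g36830D, one of the 3 Solar-to-Lumen genes that fell, was at 4 to 116 (median 26) and 0 to 69 (median 7), a change of -1.94 (standard error 0.43, limma adjusted p of 0.00021), and its libraries separated the hybrids in 0 of the 8 combinations. It did not pass in control plots alone (-1.62), without replicate 3 of season 1 (-1.51) or in season 1 alone.

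Other genes that rise with the age of the seed moved with hybrid and season as well. The 200 genes, members left out, that rose most from 7 to 14 DAF in seeds had a mean log2 level at 14 DAF of 3.75 in Lumen and 5.70 in Solar in season 1, a difference of -1.95, with libraries of 1.80 to 4.93 and 5.44 to 5.89. In season 2 they stood at 6.28 and 4.73, a difference of 1.54, with libraries of 4.73 to 7.61 and 1.14 to 7.10. Solar was the higher hybrid in this list in the first season and Lumen in the second, the direction of the Solar-to-Lumen genes. The 200 genes that fell most differed by 0.24 and -0.54 at 14 DAF, with overlapping libraries in both seasons. They differed by 0.44 and -1.02 in control seeds of that time, and by 0.03 and -0.06 in heated seeds. At 7 DAF their differences were -0.13 and -0.28, without a turn. The part of these lists in the members' difference was not tested.

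At 7 DAF the rising list differed by 0.24 in season 1 and 0.89 in season 2, and the Solar-to-Lumen genes by -0.59 and 0.46. With the treatments pooled, the libraries of the hybrids overlapped in both seasons for the list and for these members. With the treatments apart, these members did not overlap at 7 DAF, and the list lay apart only in heated seeds of season 2 (1.02). In heated seeds at 14 DAF of season 2 the rising list differed by 0.28, with overlapping libraries, and the Solar-to-Lumen genes by 0.46, without overlap. In the control seeds of that time the list differed by 2.81 and the members by 0.67. The members were chosen for their sign in each of these conditions and the list was not, so the separation of the members describes the choice. The 200 genes with the largest excess of siliques over seeds were taken as a rough measure of pod tissue carried into the seed samples. They differed between the hybrids by -0.02 to 0.12 over the 4 combinations of time and season, with overlapping libraries in each. With the treatments apart, the difference reached 0.33 in control seeds of 7 DAF in season 2, again with overlap. The list was chosen on these libraries and lies low in seeds, so small differences could be missed.

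**Figure D4:**
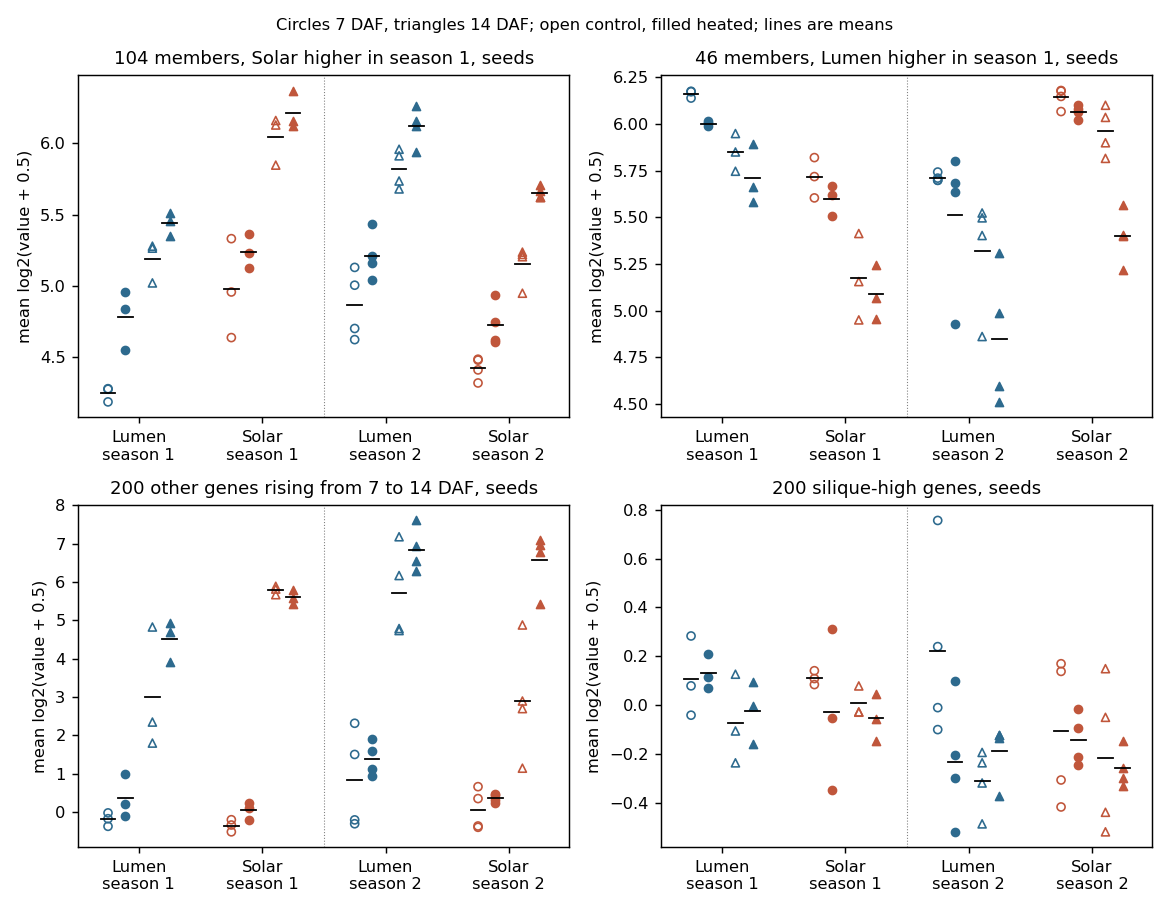
Mean log2(value + 0.5) in every seed library of the 104 Solar-to-Lumen genes, the 46 Lumen-to-Solar genes, 200 other genes that rise from 7 to 14 DAF and 200 silique-high genes, by hybrid and season; circles are 7 DAF, triangles 14 DAF, open symbols control, filled symbols heated, and lines means. The top panels turn round between seasons at both times, the mean of the rising list turns at 14 DAF, and the silique-high genes stay between -0.52 and 0.76 in all seed libraries.

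Averaged over the hybrids, 28 members rose and 30 fell in seeds between season 1 and season 2 at an adjusted p under 0.01 (limma), 58 of 150. Among all genes tested 27.3% were called. Among those of like level 45.1% were called, 29.9% higher and 15.2% lower, beside 38.7% of the members. The Solar-to-Lumen genes gave 17 higher and 16 lower and the Lumen-to-Solar genes 11 and 14. After median-ratio rescaling of the libraries the members split into 21 higher and 39 lower. Without replicate 1 of season 1 the count was 38, in control plots alone, a check added after the data had been seen, 32, and at 14 DAF alone 22.

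Of the members called, BnaAnng06590D, a Lumen-to-Solar gene, rose most, from 1 to 19 in the 24 seed libraries of season 1 (median 7) to 0 to 126 in the 32 of season 2 (median 28.5), a change of 1.74 (standard error 0.32, limma adjusted p of 3.02e-05). The change was 2.68 in Solar and 0.80 in Lumen. BnaCnng33670D followed with 0.82 (standard error 0.11), from a median of 10 to 21.5. BnaC08g00150D fell by 1.08 log2 units (standard error 0.15), and BnaCnng46650D by 1.06 (standard error 0.17), from 36 to 90 (median 64) to 5 to 117 (median 32.5). In BnaCnng46650D the change was -1.53 in Lumen and -0.58 in Solar. BnaAnng06590D did not pass at 7 DAF alone (1.83) or in control plots alone (0.92), BnaC08g00150D at 14 DAF alone (-0.84), and BnaCnng46650D in control plots alone (-0.73).

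The siliques of the same trials, which the rule did not use, repeated part of the reversal. Of the 150 members, 138 were tested in siliques, and the other 12 did not pass the filter on low values. The difference of Lumen minus Solar between the seasons passed for 37 members, 27 Solar-to-Lumen and 10 Lumen-to-Solar genes, against 4.45% of all genes tested and 6.28% of those of like level, 3.28% upwards and 3% downwards (limma, 54752 genes, adjusted p under 0.01). All 37 went in the direction seen in seeds. Without season 1 replicate 3 the count was 27, and with any other replicate left out it was between 25 and 48, the 48 with 1 Solar-to-Lumen gene in the opposite direction. Over all members, tested or not, the value for season 1 minus season 2 had a median of -0.47 in the Solar-to-Lumen genes, with 85 of 104 below 0, and of 0.63 in the Lumen-to-Solar genes, with 46 of 46 above 0, while 57.7% of the 9430 genes of like level tested were above 0. Seed and silique libraries share the season, the plots and the sampling dates, so siliques are another tissue and not another trial. Seed tissue carried into the silique samples was not tested. In control siliques of 14 DAF the rising list stood at -0.46 to -0.41 in Lumen and -0.24 to 0.41 in Solar in season 1. The season 2 levels were -0.42 to 0.67 and -0.56 to -0.30. In heated siliques of 14 DAF they were -0.49 to 1.08 and -0.23 to 0.43 in season 1, and -0.17 to 0.98 and -0.51 to 0.03 in season 2.

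Within single seasons fewer members passed in the seed direction in season 2 than in season 1. The hybrids differed in season 1 for 33 Solar-to-Lumen genes in the seed direction and 6 in the other, and for 20 Lumen-to-Solar genes in the seed direction and 2 in the other, 61 in all, against 30.9% of all genes tested and 35.2% of those of like level (18% higher and 17.2% lower in Lumen). In season 2 they differed for 17 Solar-to-Lumen genes in the seed direction and 3 in the other, and for 7 and 3 Lumen-to-Solar genes, 30 in all, against 26.2% and 29.6% (13.8% higher and 15.8% lower). Whether the seasons differ in these counts was not tested. Of the 150 genes, 81 had the seed sign in both seasons in siliques and 7 the opposite sign in both, and 33.3% of the genes of like level changed sign between seasons. In 7 members, 5 Solar-to-Lumen and 2 Lumen-to-Solar genes, the hybrids differed in the seed direction in both seasons by the test, where 0.371% and 0.18% of the genes of like level did so in these directions.

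Fewer silique calls were made with the sampling times taken apart. With 14 DAF alone 26 members passed for the season difference, all in the seed direction, and with 7 DAF alone 5, all in the seed direction. With control plots alone, a check added after the data had been seen, 11 passed, again all in the seed direction. The difference between the times was not tested.

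BnaC01g38510D, the folding gene, had the largest silique value, -3.66 (standard error 0.44, limma adjusted p of 3.54e-07). In season 1 its value was 0 to 8 in Lumen siliques (median 3) and 3 to 77 in Solar (median 19). The season 2 values were 0 to 19 in Lumen (median 2) and 0 to 4 in Solar (median 0.5). In heated siliques of 14 DAF it stood at 4, 3 and 3 in Lumen and 41, 77 and 53 in Solar in season 1, and at 5, 19, 4 and 3 and 2, 4, 2 and 2 in season 2. Solar siliques thus held it high in season 1 and near 0 in season 2, and heat raised it in siliques by 2.11 (standard error 0.22, limma adjusted p of 9.91e-09). The other folding members moved the same way in siliques, BnaC02g12750D by -1.78 (limma adjusted p of 5.67e-07) and BnaA03g48890D by -1.46 (limma adjusted p of 0.000154).

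BnaC03g33010D gave -3.18 in siliques (standard error 0.54, limma adjusted p of 9.71e-05). It stood at 1 to 12 in Lumen (median 3) and 6 to 68 in Solar (median 20) in season 1, and at 2 to 26 (median 11.5) and 2 to 33 (median 4.5) in season 2. The hybrids overlapped in both seasons, more so in season 2. It did not pass at 7 DAF alone (-2.95) or in control plots alone (-2.89).

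In the other direction BnaA04g26750D led with 2.76 (standard error 0.30, limma adjusted p of 6.36e-08). Its silique value was 17 to 47 in Lumen (median 29.5) and 4 to 16 in Solar (median 7.5) in season 1. In the second season it was 3 to 24 in Lumen (median 12) and 9 to 56 in Solar (median 25). The hybrids did not overlap in season 1 and overlapped in season 2. BnaA10g18370D gave 1.77 (standard error 0.28, limma adjusted p of 4.36e-05), from 73 to 233 in Lumen (median 130.5) and 17 to 168 in Solar (median 54.5) in season 1 to 27 to 142 (median 54) and 34 to 156 (median 95.5) in season 2. Neither gene passed at 7 DAF alone, at 2.35 and 1.54, and BnaA10g18370D did not pass in control plots alone, at 1.54.

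**Figure D5:**
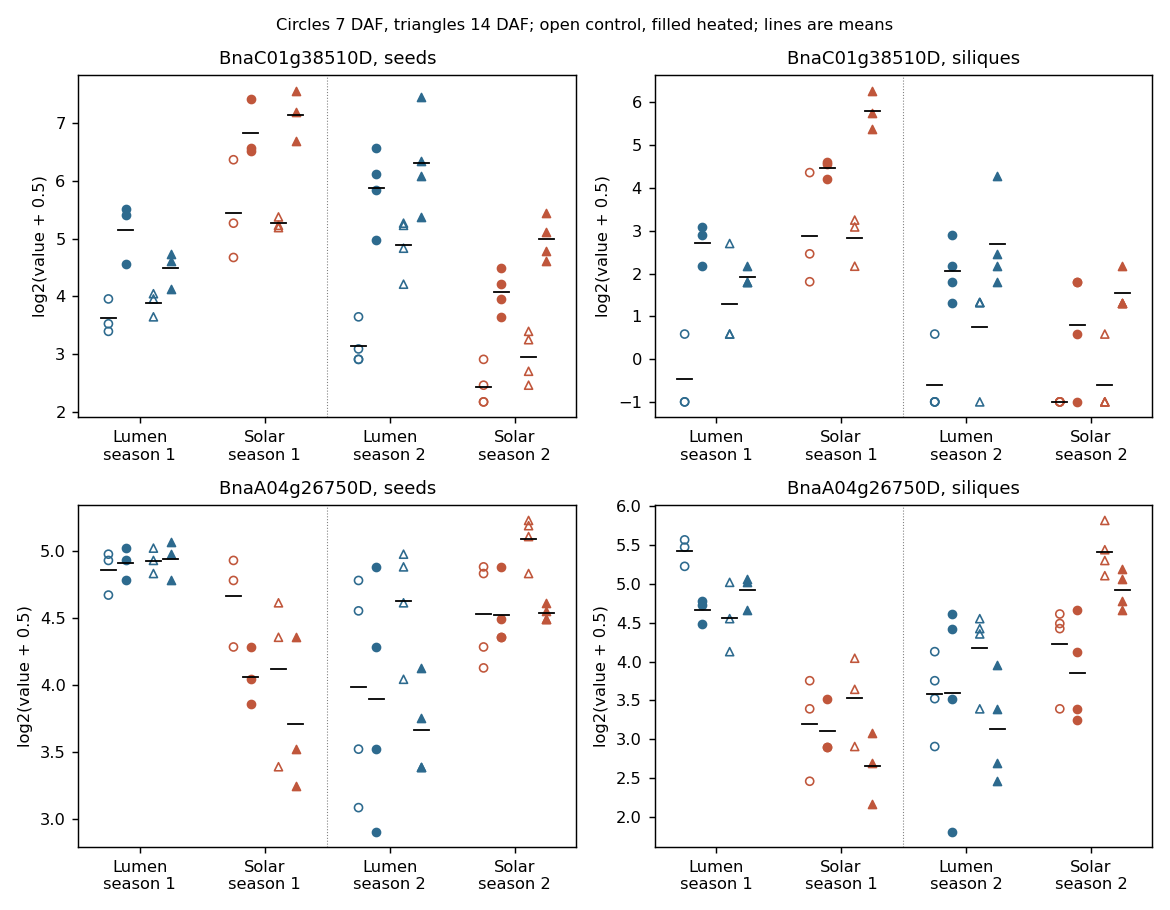
log2(value + 0.5) in every seed (left) and silique (right) library of BnaC01g38510D, annotated to protein folding, and BnaA04g26750D, by hybrid and season; circles are 7 DAF, triangles 14 DAF, open symbols control, filled symbols heated, and lines means of 3 or 4 libraries. In season 1 the means of Solar (red) lie above those of Lumen (blue) for the first gene and below them for the second in both tissues, and the order turns in season 2 in both tissues.

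The other contrasts gave fewer calls in siliques than in seeds. Heat raised 20 and lowered 5 of the Solar-to-Lumen genes and raised 1 and lowered 2 of the Lumen-to-Solar genes in siliques, 28 in all, against 5.09% of all genes tested and 6.71% of those of like level (3.32% raised, 3.39% lowered), and 16 members were called for heat in both tissues in a single direction, beside 0.689% of the genes of like level tested in both. Sampling time raised 31 and lowered 8 of the Solar-to-Lumen genes and raised 5 and lowered 14 of the Lumen-to-Solar genes, 58 in all, against 34.3% and 47.4% (16.8% raised, 30.5% lowered). From season 1 to season 2, 2 rose and 21 fell of the first group and 6 rose and 9 fell of the second, 38 in all, against 15.2% and 25.7% (12.3% raised, 13.4% lowered). BnaC05g07900D, which rose in seeds, stood at 32 to 141 in siliques of 7 DAF (median 73.5) and at 28 to 92 at 14 DAF (median 52), a change of -0.43 (standard error 0.11, limma adjusted p of 0.00127). Of the 150 genes 11 had a mean silique value under 1, and 41 had a higher mean value in siliques than in seeds.

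The members were spread over the genome. By their identifiers 79 belong to the A subgenome and 71 to the C subgenome, against 4646 and 5233 of the genes of like level, and 129 are placed on a chromosome. The most on a single chromosome were 12 on A03 and 11 on C03, which hold 621 and 785 genes of like level. Only BnaC05g07890D and BnaC05g07900D are neighbours in the order of identifiers, and BnaC08g15730D and BnaC08g15760D lie 3 steps apart, both pairs of Solar-to-Lumen genes. The identifiers of 7 members are symbols in the RefSeq gene table at hand, which gives no further name for any of them. Of 10 transcription factors described as network hubs for these data, 0 are members.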

How the data were processed

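RNA-seq libraries of seeds and siliques were quantified by the authors with kallisto 0.46 on the AST_PRJEB5043_v1 transcripts, and their own differential tests used Sleuth. The matrix deposited by the authors holds a whole-number normalized score for each transcript and library. Its scaling is not given in the sources used here. The study lists read numbers per library, but the deposited values carry no read counts and these numbers were not used here, so there is no count model and no counting interval. Columns were matched to samples through the labels, and 0 columns of samples were left unused. The annotation gives no sequence, so none is printed.

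Values were tested as log2(value + 0.5) with limma 3.58.1 (R 4.3.3, with the package data.table in version 1.17.8), with trend, in each tissue on its 56 libraries with a mean for each of the 16 conditions. Genes entered when 47% of the libraries held a value of 1 or more, and Benjamini-Hochberg adjusted p under 0.01 over all of them was the threshold. Fold changes on this scale understate the change of low genes. Genes of like level are those with a mean seed value of at least 20. The self-test on simulated data recovered 90% of 200 genes changed by 1 log2 unit for seed heat (52283 genes) and 68% for the silique difference between seasons (53668 genes).

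The members and the gene lists were chosen with earlier results of these data known. Genes named are the 2 with the largest value in each direction of a comparison, with annotated members added after their values were seen. Alternatives were pseudocount, filter, rescaling, threshold, replicate block, interactions, single seasons, times and treatments, and each replicate left out. The p-values measure the spread between plots of a condition; the split plot and repeated sampling were not modelled. The treatment protocol in the labels describes 3 field replicates in each season, while the sample labels and the RNA-seq methods give 4 for season 2.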

Additional observations from a re-analysis of the deposited data

Results flagged for a closer look

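In siliques the difference between Lumen and Solar changed with the season for 37 members in limma's interaction test. The named ones were BnaA04g26750D at 2.76, BnaA10g18370D at 1.77, BnaC01g38510D at -3.66 and BnaC03g33010D at -3.18 log2 units, season 1 minus season 2.

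Among 168 groups of 4 libraries of season 2 looked at for the named genes and lists, 13 held a library far from its other 3, where chance gives about 1 in 20, or 8.4. In seeds, BnaA03g19390D stood at 343 in a heated Solar library of 14 DAF against 1177 to 1453 in the others. BnaC03g33010D stood at 4 in a control Lumen library of 7 DAF against 27 to 32, and BnaC06g01610D at 16 in a control Lumen library of 14 DAF against 36 to 39. The mean log2 level of the Solar-to-Lumen genes was 4.95 in a control Solar library of 14 DAF against 5.20 to 5.24. For BnaC03g37680D the step was a single unit, 1 against 2 in control Solar and 6 against 7 in heated Solar seeds of 7 DAF.

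In siliques, BnaA04g26750D stood at 10 in a control Lumen library of 14 DAF against 20 to 23, and at 10 in a control Solar library of 7 DAF against 21 to 24. BnaA10g18370D stood at 89 in a control Solar library of 7 DAF against 47 to 52. BnaC01g38510D, near 0 in these siliques, gave 1 against 0 in control Lumen at 7 DAF, 0 against 2 in control Lumen at 14 DAF, 1 against 0 in control Solar at 14 DAF and 4 against 2 in heated Solar at 14 DAF.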

How the results depend on the processing

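The counts stayed within 1.5 times their value in 93 comparisons with an alternative and moved further in 23. The sign rule was met by 325 genes, and by 115 with a mean value of at least 50, 61 of the 150 members among them. Seed heat (49 members) gave 74 at an adjusted p under 0.05, 10 without interactions, 5 in season 1 alone, 22 in season 2 alone, 7 at 7 DAF alone and 16 at 14 DAF alone, and in each of these no Solar-to-Lumen gene was called lower and no Lumen-to-Solar gene higher. Seed season (58) gave 35 without interactions, 38 at 7 DAF alone, 22 at 14 DAF alone and 32 in control plots alone. The silique difference between seasons (37) gave 58 at an adjusted p under 0.05, with 2 Solar-to-Lumen genes in the other direction, 5 at 7 DAF alone and 11 in control plots alone. The hybrid difference in siliques gave 37 at 7 DAF alone, 37 at 14 DAF alone and 29 in control plots alone in season 1 (61), and 16 at 7 DAF alone in season 2 (30). The fits with control plots alone were added after the data had been seen. Leaving out each replicate number in turn gave 268 to 331 genes for the rule, with 101 to 131 of the members still meeting it and 97 to 119 among the 150 then kept, 20 to 52 members for heat, 99 to 111 for time, 38 to 59 for season, 25 to 48 for the silique difference between seasons, and 43 to 63 and 20 to 32 for the hybrids in siliques in season 1 and season 2. Of the named genes 263 values stayed on their side of the threshold, 18 no longer passed and 0 reversed. The cause of these changes was not tested.

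Pairing of seed with silique libraries by replicate number was not tested. Within a tissue, most libraries were not closest to their own number. Correlations of same-numbered libraries ran from -0.55 to 0.68, and 15 of 56 seed and 23 of 56 silique libraries were closest to their own number. With the replicate number as a block the counts were 53 for heat, 108 for time, 57 for season, 37 for the silique difference between seasons, and 59 and 29 for the hybrids in siliques.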
